A study of Homo sapiens with 18 samples.

Results

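The comparison described here is that of 2 clones of the human acute myeloid leukaemia line OCI-AML3, both labelled as CASP2 knockouts, with the parental OCI-AML3 cells they came from. It uses 9 of the 18 libraries of the series. The members were chosen by sample title: 3 libraries of parental cells (NPM1c+, wild type for caspase-2), 3 of clone 1 (AML3C9; NPM1c+, caspase-2 KO) and 3 of clone 2 (AML3C23; NPM1c+, caspase-2 KO). The other 9 libraries come from OCI-AML2, a line with normal NPM1, as parental cells and 2 CASP2 knockout clones made in the same way with CRISPR-Cas9. All cells were untreated and kept for less than 2 weeks in RPMI medium with serum. Each clone is 1 line. Nothing in the labels says that the 3 libraries of a group came from separate cultures, so p-values measure the spread between these libraries, which may be technical.

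Caspase-2 is an initiator protease of the cell death machinery that is activated in large complexes after DNA damage, failed division or loss of adhesion, and it can cut MDM2 and so prolong p53 activity. NPM1 is an abundant nucleolar protein, and nucleolar NPM1 serves as a platform on which caspase-2 is activated. The NPM1c+ mutation moves NPM1 to the cytoplasm and is a common lesion of acute myeloid leukaemia, where it goes together with high HOX gene expression and a block in myeloid maturation. The comparison asks which transcripts differ once caspase-2 has been targeted in such cells.

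The targeted gene came first. CASP2 was listed at 30.11, 28.12 and 28.0 TPM, a level scaled for transcript length and library size, in parental cells. The values were 26.34, 27.05 and 27.83 in clone 1 and 31.09, 35.39 and 29.82 in clone 2. The clone 1 libraries lay just under the parental range and those of clone 2 overlapped it. On the log2 scale clone 1 differed by -0.08 and clone 2 by 0.15 (SE 0.11), with limma adjusted p-values of 0.54 and 0.24. An exact two-sided permutation test gave p = 0.1 and p = 0.2, where 0.1 is the smallest p that 3 against 3 libraries allow. After rescaling by medians of ratios clone 2 passed (0.32, limma adjusted p = 0.00962), and its adjusted p ran from 0.00962 to 0.59 over all settings tried. In OCI-AML2, CASP2 was at a mean of 36.1 TPM in parental cells and 3.503 and 4.453 TPM in the knockout clones, and the difference between the lines passed (2.95 on the log2 scale, limma adjusted p = 1.5e-12). The symbol rests on a single line of the table. An edit that shifts the reading frame can leave the mRNA level as it was, so these values neither show nor exclude loss of the protein, and both clones are named below by their label.

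The deposited table holds genes picked for a change, not whole transcriptomes. Its 5069 distinct sets of 18 values add up to between 170140 and 183701 TPM per OCI-AML3 library, and read depth is unknown. Of these sets, 4413 reached 1 TPM in 3 libraries and were tested, and 2112 of the tested ones could be tied to a gene symbol (see the processing section). Markers could be checked only in part, since 1 of 13 myeloid leukaemia markers had a settled symbol: CSF2RA, at 1.67 to 2.47 TPM in parental libraries. The azurophil granule gene AZU1, a marker of granulocyte precursors, was at 1262.06 to 1584.47 TPM in the same libraries. The T cell marker CD3D was at 0 in all 9 libraries and the B cell marker PAX5 at 0.52 TPM or less. NKG7, a granule gene of T and NK cells, was at 12.64 to 20.01 TPM in parental libraries, 2.71 to 3.94 TPM in clone 1 and 2.88 to 6.29 TPM in clone 2; its part in other falls was not tested. No erythroid, epithelial or endothelial marker had a settled symbol.

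A set was called higher or lower only if both clones passed limma's test (adjusted p under 0.05) in the same direction. This held for 2959 of the 4413 tested sets (67.1%), 1267 higher (28.7%) and 1692 lower (38.3%). Among the 2112 sets with a symbol the share was 84.5%, with 35.7% higher and 48.8% lower, so genes with a symbol were called more often than the table as a whole. The naming rules may favour this: a set in a single line was named only where parental OCI-AML3 and OCI-AML2 differed little. Such a set is more likely to be listed for a change in a clone. This rule named 673 of the 2355 sets with a symbol, and its part in the higher share was not tested. Counts of list members below are to be read against these last 3 shares. The median log2 change of the genes with a symbol was -0.25. In 3008 sets (68.2%) the 3 parental libraries did not overlap the 6 clone libraries, with the clones lower in 38.8%. A log2 change of at least 1 in each clone was reached by 1240 sets (28.1%). Taken alone, clone 1 passed in 72.2% of sets (31.3% higher, 41% lower) and clone 2 in 73.1% (31.6% higher, 41.5% lower). Bulk RNA cannot tell more cells of a kind from more RNA per cell.

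**Figure D1:**
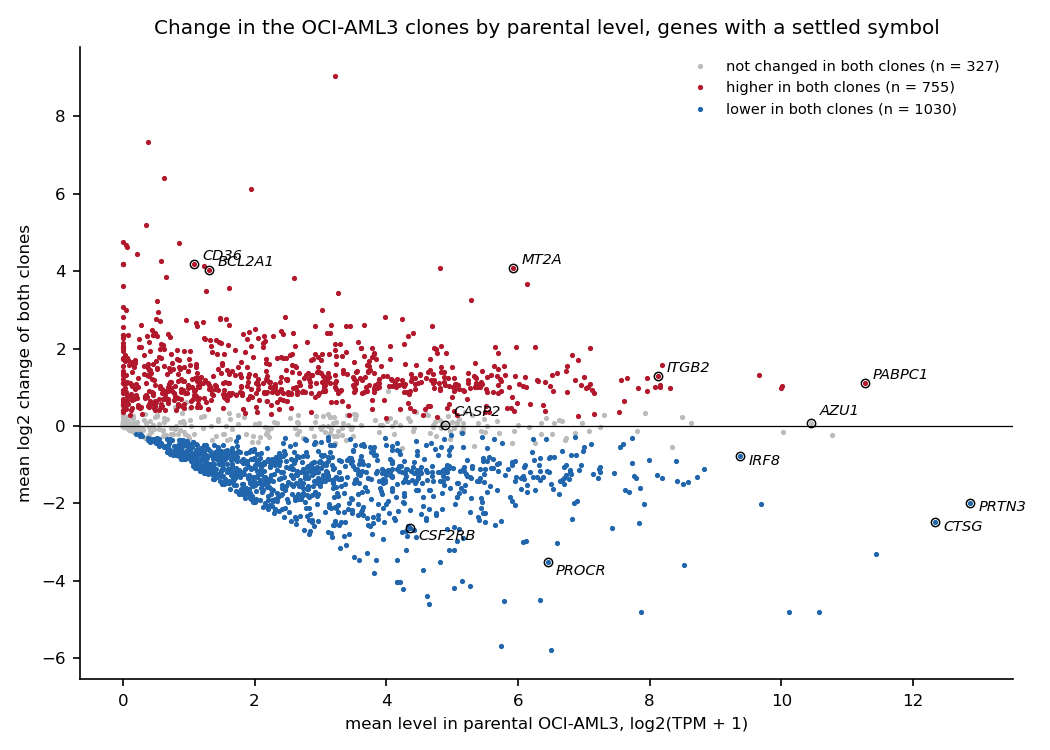
Mean log2 change of both OCI-AML3 clones (vertical axis) against the mean parental level as log2(TPM + 1) (horizontal axis), 1 point per gene with a settled symbol. Of 2112 genes, 755 were higher (red), 1030 lower (blue) and 327 not changed in both clones (grey). Falls of genes at low levels are bounded by the parental level, which gives the lower edge of the cloud.

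Genes of the mononuclear phagocyte surface moved in both directions, as did genes with a symbol at large. Of 23 tested receptors of monocytes and macrophages, 9 were higher and 9 lower in both clones, with a median log2 change of 0.09. Over all genes with a symbol 35.7% were higher and 48.8% lower, so this split is near that of the table. CD36, a scavenger receptor for oxidised lipids and a marker of monocytes, was listed at 0.81, 1.54 and 1.02 TPM in parental cells. It reached 41.95, 40.61 and 38.59 TPM in clone 1 and 35.29, 33.46 and 34.82 TPM in clone 2, 35.9 and 30.7 times the parental mean (SE 0.11 on the log2 scale; limma adjusted p = 5.5e-16 and 1e-15). CD86, a costimulatory ligand for T cells, rose from 0.427 TPM to 11.9 and 12.9 TPM. TREM2, a lipid-sensing receptor of macrophages, rose from 7.12 TPM to 63.1 and 65.3 TPM, and the chemokine receptor CCR2 from 0.207 TPM to 4.39 and 3.68 TPM. None of the 6 clone libraries overlapped the parental ones for these 4 genes.

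Other phagocyte receptors went the other way in the same libraries. CD68, a glycoprotein of macrophage lysosomes, was at 922.32, 777.56 and 769.01 TPM in parental cells, 182.96, 179.36 and 202.33 TPM in clone 1 and 208.12, 232.81 and 206.06 TPM in clone 2. TREM1, which amplifies inflammatory signals, fell from 10.9 TPM to 1.35 and 1.53 TPM. The high-affinity IgG receptor gene FCGR1A fell from 91.5 TPM to 30.2 and 28.3 TPM, and FCGR1B, a near-identical copy whose reads may be shared with it, from 10.4 TPM to 2.95 and 3.19 TPM. TYROBP, the signalling adaptor of several of these receptors, fell from 72.0 TPM to 29.8 and 32.1 TPM. OSCAR, at 125 TPM in parental cells and 128 and 138 TPM in the clones, was the most abundant receptor on the list that was not called.

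Among 7 tested leukocyte immunoglobulin-like receptors, 4 were lower and 1 higher. SIRPB2 (52.3 to 8.29 and 9.12 TPM), the sialoadhesin gene SIGLEC1 (43.3 to 11.2 and 6.26 TPM) and LILRA2 (8.31 to 1.13 and 1.22 TPM) fell. LAIR1, an inhibitory collagen receptor, rose from 116 TPM to 244 and 287 TPM. Of 5 tested Toll-like receptor genes and partners, 4 were higher: CD14 (0.813 to 42.1 and 50.2 TPM), TLR4 (0.323 to 2.30 and 2.21 TPM), TLR2 (68.7 to 148 and 130 TPM) and TLR9 (1.12 to 2.37 and 3.06 TPM). TIFAB, an inhibitor of signalling through TRAF6, fell from 12.98 TPM to 1.64 and 1.86 TPM. CD14 is the co-receptor that hands lipopolysaccharide to TLR4.

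The phagocyte NADPH oxidase makes superoxide in the phagosome and needs a membrane core, cytosolic subunits and a proton channel. The membrane core gene CYBB, the cytosolic subunit gene NCF1 and the proton channel gene HVCN1 were higher in both clones. NCF1 was listed at 41.19, 40.63 and 31.96 TPM in parental cells, at 332.39, 356.77 and 345.8 TPM in clone 1 and 381.76, 419.54 and 389.01 TPM in clone 2. HVCN1 went from 15.6 TPM to 51.1 and 57.5 TPM. NCF1 has near-identical pseudogenes, so its level depends on how shared reads were assigned.

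Azurophil (primary) granules hold serine proteases made at the promyelocyte stage. CTSG, cathepsin G, was at 5142.54, 5103.1 and 5230.9 TPM in parental cells, 862.1, 824.2 and 833.25 TPM in clone 1 and 1053.84, 970.43 and 1006.38 TPM in clone 2. PRTN3, proteinase 3, was at 8465.47, 7020.75 and 6957.43 TPM against 1550.54, 1611.36 and 1669.9 TPM in clone 1 and 2153.76, 2415.97 and 2008.22 TPM in clone 2. These were the largest losses in TPM among named genes: both proteases summed to 12640 ± 839 TPM in parental cells, 2450 ± 47.1 TPM in clone 1 and 3203 ± 186 TPM in clone 2 (SD, n = 3). AZU1, a neighbour of PRTN3 in the same protease cluster, was not called, with means of 1403, 1371 and 1575 TPM in parental cells, clone 1 and clone 2. PRSS57, a further granule protease (5.57 to 0.890 and 0.880 TPM), and SERPINB1, the inhibitor of these proteases (69.8 to 24.9 and 22.5 TPM), fell, whereas the protease of the same cluster CFD, complement factor D, rose from 315 TPM to 670 and 569 TPM. In all, 4 of 7 tested granule members were lower and 1 higher. Between the clones, 2 of the 7 were called higher in clone 2, against 4.21% of genes with a symbol. They were CTSG (limma adjusted p = 0.02) and PRTN3 (limma adjusted p = 0.039).

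S100 proteins are small calcium-binding proteins that are abundant in maturing myeloid cells. Of 6 tested members, 4 were lower. S100A4 fell from 31.92, 44.46 and 46.33 TPM to between 5.69 and 8.63 TPM in the 6 clone libraries, S100A10 from 43.0 TPM to 10.6 and 10.3 TPM, and S100A6 from 147 TPM to 67.0 and 50.1 TPM. S100A9 rose at a low level, from 2.05 TPM to 5.99 and 7.27 TPM. S100A8, at 0.953 TPM in parental cells and 2.31 and 2.10 TPM in the clones, was not called. It passed after rescaling by medians of ratios, with the replicate number as a block (0.63 on the log2 scale, limma adjusted p = 0.029) and without parental replicate 2 or clone 1 replicate 3. Among regulators of this lineage, NFE2 rose from 0.940 TPM to 11.8 and 12.1 TPM. IRF8, a monocyte and dendritic cell factor, fell from 630.47, 724.51 and 638.51 TPM to between 349.69 and 427.57 TPM. BCL11A fell from 2.47 TPM to 0.123 and 0.117 TPM. In all, 6 of 10 tested myeloid transcription factors were lower and 3 higher.

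**Figure D2:**
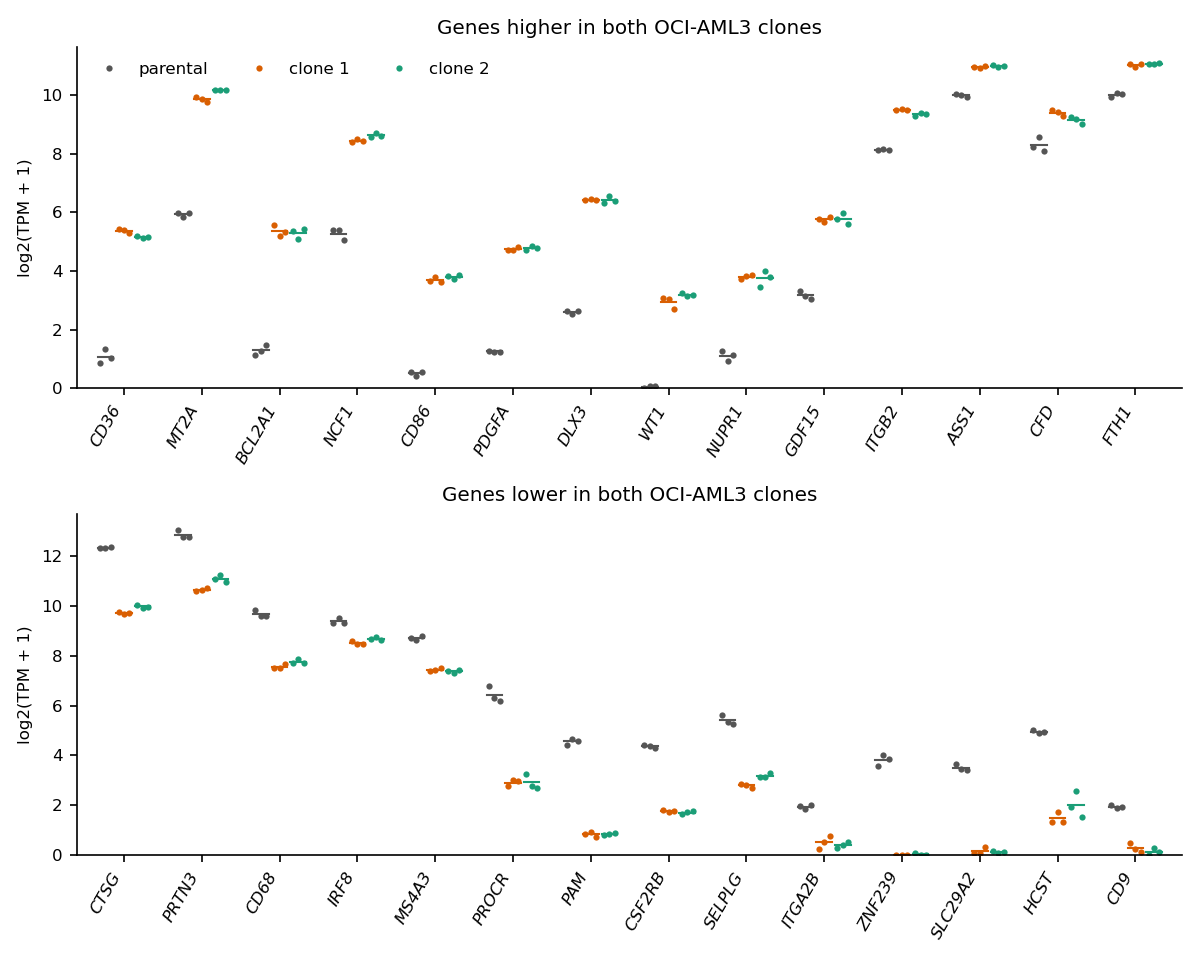
TPM of 28 genes in each OCI-AML3 library, as log2(TPM + 1) on the vertical axis. Points are the 3 libraries of parental cells (grey), clone 1 (orange) and clone 2 (green), and short lines are group means. In each gene shown the parental libraries do not overlap the 6 clone libraries. CTSG and PRTN3 are the most abundant genes of the lower panel, and both were higher in clone 2 than in clone 1.

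Eicosanoids are lipid mediators made from arachidonic acid, by cyclooxygenases to prostaglandins and by 5-lipoxygenase to leukotrienes. Genes of this list were mostly higher, 9 of 11 tested members, with 1 lower and a median log2 change of 1.41. On the leukotriene side, ALOX5, the 5-lipoxygenase, was at 3.59, 4.25 and 2.56 TPM in parental cells, 18.33, 18.28 and 18.06 TPM in clone 1 and 22.42, 21.65 and 18.09 TPM in clone 2. Its partner ALOX5AP rose from 27.3 TPM to 410 and 553 TPM. On the prostaglandin side the isoenzymes diverged. PTGS2, the inducible cyclooxygenase, rose from 0.35, 0.35 and 0.53 TPM to 7.9, 7.16 and 7.52 TPM in clone 1 and 5.37, 5.2 and 5.83 TPM in clone 2. PTGS1, the constitutive one, fell from 3.02 TPM to 0.30 and 0.49 TPM. The prostaglandin receptor genes PTGER3 (0.803 to 4.83 and 4.87 TPM) and PTGER4 (8.29 to 19.2 and 19.0 TPM) and the epoxide hydrolase gene EPHX2 (2.14 to 8.06 and 6.76 TPM) were also higher. The symbols of all 11 tested members were settled by replicate order or repeats.

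Genes that make lipids were lower. The 4 tested members of sterol synthesis fell, with a median log2 change of -1.07, and so did the 4 tested members of fatty acid synthesis and desaturation, with a median of -1.31. INSIG1, a sterol-regulated brake on SREBP processing, was at 145.3, 151.19 and 150.45 TPM in parental cells and at 66.2 to 73.48 TPM in the 6 clone libraries. DHCR7, the last enzyme of cholesterol synthesis, fell from 103 TPM to 46.4 and 51.6 TPM. FADS2, the delta-6 desaturase, fell from 230.11, 196.77 and 190.34 TPM to between 54.29 and 74.85 TPM, and its neighbour FADS1 from 110 TPM to 52.2 and 47.1 TPM. For each of these lists, 3 of the 4 symbols rest on a single line of the table, the weaker of the naming rules. Among lipid carriers APOC2 rose from 0.413 TPM to 8.31 and 9.01 TPM and NPC2, the lysosomal cholesterol carrier, fell from 140 TPM to 61.2 and 57.2 TPM.

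Of 7 tested genes of glycolysis and glycogen, 3 were lower and 2 higher. The phosphofructokinase genes PFKP (109 to 42.0 and 40.6 TPM) and PFKM (50.4 to 15.9 and 14.8 TPM) and the enolase gene ENO2 (23.2 to 3.51 and 3.81 TPM) fell. SLC2A5, the fructose transporter, rose from 39.9 TPM to 130 and 121 TPM. ASS1, which makes argininosuccinate and so lets cells make arginine, was among the largest gains in TPM, from 1016 TPM to 1978 and 2029.9 TPM. G0S2, an inhibitor of lipolysis, rose from 135 TPM to 543 and 549 TPM.

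Interferon-stimulated genes encode antiviral effectors that are switched on through the factor ISGF3, which binds a short element in their promoters. Of 18 tested members, 9 were lower and 4 higher in both clones, with a median log2 change of -0.71. IFI27, a small membrane protein, was at 1410.72, 1595.75 and 1567.22 TPM in parental cells, 98.13, 100.42 and 87.44 TPM in clone 1 and 28.39, 33.26 and 27.89 TPM in clone 2. IFI44L was at 235.35, 247.12 and 235.44 TPM in parental cells, at 87.6, 84.46 and 73.45 TPM in clone 1 and 43.09, 39.08 and 44.37 TPM in clone 2. MX1, a GTPase that blocks influenza virus, was at 110.47, 105.44 and 116.02 TPM, then 68.19, 65.96 and 65.1 TPM and 32.27, 32.58 and 32.84 TPM. In these genes the 3 groups did not overlap and lay in the order parental, clone 1, clone 2. OAS2 (230 to 98.3 and 57.8 TPM), SAMD9 (22.5 to 7.14 and 4.25 TPM), RSAD2 (6.53 to 1.80 and 0.970 TPM), IFI44 (103 to 50.5 and 25.5 TPM) and CMPK2 (50.5 to 33.5 and 18.6 TPM) fell too.

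The IFIT genes, whose proteins bind foreign RNA ends, were higher in the clones instead. IFIT1 was at 1.57, 1.84 and 1.79 TPM in parental cells, at 10.28, 9.22 and 9.28 TPM in clone 1 and 4.15, 4.25 and 5.27 TPM in clone 2. IFIT2 rose from 0.983 TPM to 5.70 and 3.22 TPM and IFIT3 from 12.1 TPM to 33.3 and 16.2 TPM. Here the order was clone 1, clone 2, parental. IFIT3 and the guanylate-binding gene GBP4 (2.54 to 4.32 and 3.29 TPM) are calls close to the threshold in clone 2 (adjusted p = 0.0053 and 0.0077), and with a pseudocount of 0.1 TPM the number of higher members was 2.

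Clone 2 lay under clone 1 across nearly this whole list. The direct test between the clones called 16 of the 18 members lower in clone 2 and 0 higher, where 3.03% of all genes with a symbol were called lower in clone 2, 4.21% higher and 7.24% either way. The others were IFITM3 (-0.33) and PARP12 (-0.21), which did not pass. IFI27 differed most (-1.64, adjusted p = 1.2e-05), from 95.3 TPM in clone 1 to 29.8 TPM in clone 2, followed by MX1 (-1.01, adjusted p = 1.1e-05) and then IFIT3 (33.3 against 16.2 TPM, adjusted p = 4.1e-05). OASL, a relative of the oligoadenylate synthetases, was called in opposite directions: 3.04, 4.31 and 4.32 TPM in parental cells, 7.25, 5.7 and 5.23 TPM in clone 1 and 2.48, 3.39 and 2.91 TPM in clone 2. Such opposite calls were made in 4 of the 4413 sets. Leaving out any of the 9 OCI-AML3 libraries gave 14 to 16 members lower in clone 2, and a pseudocount of 0.1 TPM gave 12.

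**Figure D3:**
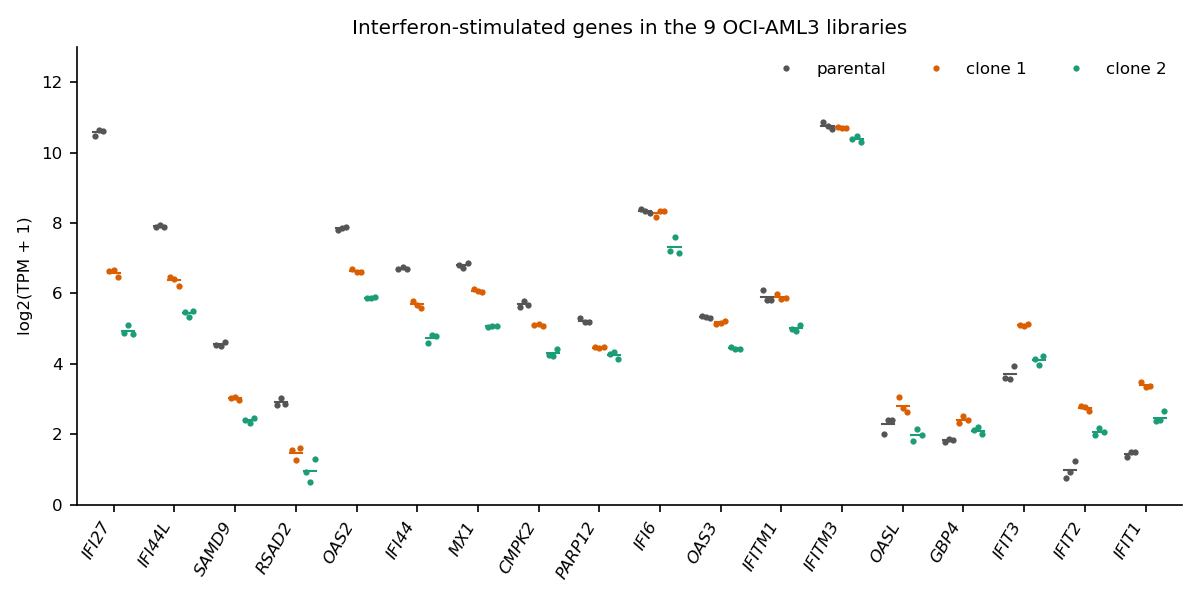
The 18 tested interferon-stimulated genes in the 9 OCI-AML3 libraries, as log2(TPM + 1), ordered by their mean change. Grey, orange and green points are libraries of parental cells, clone 1 and clone 2, and short lines are group means. Of these genes 9 were called lower in both clones, 4 higher and 5 neither. IFI6 is among the uncalled ones, and its clone 1 libraries overlap the parental ones. The green mean lies under the orange mean for each gene.

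The promoters of these genes show what the list shares beyond its name. RefSeq promoters (GRCh38.p14, 250 bases before to 50 after the start) were at hand for 13 of the 16 members lower in clone 2. The interferon response element, searched on both strands as GAAA, any 2 bases and GAAA, was present in 11 of the 13 (84.6%), against 4.16% of 1492 promoters of tested genes and 3.65% of all 27305 promoters. Over all tested interferon-stimulated genes the count was 13 of 15 (86.7%), and both members not lower in clone 2, IFITM3 and PARP12, held it, so the element was not particular to the members lower in clone 2. It was present in genes that rose and in genes that fell against parental cells. The windows below end before the transcription start and read 5′ to 3′ on the gene's strand, with the element in capitals; IFIT1 and IFIT3 were higher in the clones and the other 4 lower.
IFIT1: ctagctttagTTTCACTTTCccctttcggt
IFIT3: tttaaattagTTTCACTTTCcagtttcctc
IFI44: gcacactgagTTTCAGTTTCctttctct
IFI44L: tcctagtgagGAAAAAGAAAgttagtggca
IFI27: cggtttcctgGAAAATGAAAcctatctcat
SAMD9: tctgagaaatGAAACTGAAAccaaacctat
They lie at chr10:89392497-89392526 (plus strand), chr10:89327865-89327894 (plus), chr1:78649761-78649788 (plus), chr1:78620365-78620394 (plus), chr14:94110631-94110660 (plus) and chr7:93118096-93118125 (minus). A match describes the letters and is no evidence of binding in these cells. Among the 30 largest rises, 24 had a promoter, and 4 of these (16.7%; ALOX5AP, BCL2A1, MYBPH and NCF1) held GAGGAAGT, a PU.1 type sequence, against 3.22% of tested genes and 0 of the 20 promoters at hand for the 30 largest falls. The C/EBP type sequence TTGCNNAA was in 1 and 0 of these promoters, against 7.98% of tested genes, and the HOX type sequence TGATTNAT in 1 and 0, against 2.21%. The interferon element was in 12.5% of the rises and 10% of the falls, and the ATF4 and CHOP sequence TGATGNAA in 8.33% and 10%, so both were above the shares of tested genes (4.16% and 2.75%) in either direction. The metal response sequence TGCGCNC was in 16.7% and 10%, against 27.8%, and its form TGCACNC in 25% and 10%, against 11.9%. These counts are small and were not tested.

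Soluble signals were mostly higher. Of 14 tested interleukins and growth factors, 10 were higher and 3 lower, with a median log2 change of 1.00. PDGFA, a chain of platelet-derived growth factor, was at 1.41, 1.38 and 1.38 TPM in parental cells, 25.02, 24.94 and 27.05 TPM in clone 1 and 25.35, 27.65 and 26.48 TPM in clone 2. TGFA, a ligand of the EGF receptor, rose from 0.377 TPM to 7.05 and 5.23 TPM. TNF rose from 77.5 TPM to 161 and 196 TPM, and IL1B, also a product of activated monocytes, fell from 92.8 TPM to 47.1 and 58.3 TPM. Of 4 tested chemokines, CCL5 (307.18, 269.42 and 295.19 TPM in parental cells, 782.57 to 979.0 TPM in the clone libraries), CCL2 (13.1 to 49.7 and 51.1 TPM) and CXCL12 (0 to 1.32 and 1.66 TPM) were higher and CCL3L1 (2.20 to 0.303 and 0.173 TPM) lower. CXCR4, the receptor of CXCL12 that holds blasts in the marrow, rose from 48.5 TPM to 144 and 146 TPM.

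The receptors for GM-CSF and interleukin-3 share a beta chain that pairs with a separate alpha chain for each ligand. CSF2RB, the shared chain, was at 20.29, 19.65 and 18.8 TPM in parental cells, at 2.54, 2.35 and 2.42 TPM in clone 1 and 2.09, 2.27 and 2.36 TPM in clone 2 (log2 change -2.58 and -2.67, SE 0.08, adjusted p = 2.7e-15 and 1.8e-15). Both alpha chains were higher: CSF2RA went from 1.94 TPM to 4.31 and 3.42 TPM and IL3RA from 4.68 TPM to 10.1 and 8.79 TPM. OSMR, the oncostatin M receptor, rose from 15.6 TPM to 64.4 and 72.9 TPM while the gene of its ligand, OSM, fell from 9.54 TPM to 3.28 and 3.20 TPM. In all, 6 of 12 tested cytokine receptors were higher and 4 lower.

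Genes of the integrated stress response and the unfolded protein response, which slow translation and raise amino acid supply and chaperones, were higher in 11 of 12 tested members, with 0 lower and a median log2 change of 1.00. NUPR1, a stress-induced chromatin protein, was at 1.41, 0.89 and 1.17 TPM in parental cells, 12.08, 13.22 and 13.44 TPM in clone 1 and 9.96, 14.78 and 12.95 TPM in clone 2. DDIT3, which encodes CHOP, was at 46.71, 47.59 and 47.16 TPM, then 128.74, 136.45 and 130.12 TPM and 110.41, 97.94 and 110.98 TPM. The endoplasmic reticulum chaperone HSPA5 (BiP) rose from 138 TPM to 287 and 248 TPM and HERPUD1, of the degradation pathway there, from 130 TPM to 260 and 255 TPM. STC2 (39.6 to 81.6 and 79.9 TPM) and the glycine transporter gene SLC6A9 (31.8 to 57.1 and 63.5 TPM) were higher too, and SLC7A5, at means of 1036, 877 and 986 TPM, was not called. With symbols settled by replicate order or repeats alone, 4 of 4 tested members were higher.

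Of 8 promoters at hand for the 11 higher stress genes, 2 held TGATGNAA, the core of the element bound by ATF4 and CHOP (25%, against 2.75% of tested genes). Sequences of other factors were as frequent there or more so: the HOX type sequence was in 2 (25%, against 2.21%) and the metal response sequence TGCGCNC in 4 (50%, against 27.8%). The matches to TGATGNAA stand on the strand opposite to the gene and are shown because their genes rose with CHOP.
CHAC1: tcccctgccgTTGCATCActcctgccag
HERPUD1: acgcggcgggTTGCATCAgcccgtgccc
They lie at chr15:40953252-40953279 and chr16:56931956-56931983 (both plus strand, GRCh38.p14). CHAC1, which degrades glutathione, rose from 127 TPM to 286 and 331 TPM.

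Metal-binding proteins moved strongly and in both directions. MT2A, a metallothionein that buffers zinc and copper, was at 62.06, 55.69 and 61.68 TPM in parental cells, 983.27, 933.18 and 867.33 TPM in clone 1 and 1136.41, 1160.21 and 1146.75 TPM in clone 2, or 15.5-fold and 19.2-fold higher. MT1X rose from 119 TPM to 366 and 427 TPM, whereas MT1A fell; metallothionein genes are near-identical, so the split between them is uncertain. FTH1, the ferritin heavy chain, rose from 1033 TPM to 2081 and 2145 TPM, and SLC40A1, the iron exporter ferroportin, fell from 3.34 TPM to 1.35 and 1.10 TPM. The zinc importer genes SLC39A14 (151 to 63.1 and 69.2 TPM) and SLC39A8 (18.5 to 8.19 and 6.77 TPM) were lower. NQO1, a quinone reductase, rose from 5.14 TPM to 28.4 and 21.9 TPM. The antioxidant and glutathione list as a whole had 5 of 10 tested members higher and 5 lower.

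Caspase-2 can act on the p53 pathway, so its targets were listed. Of 12 tested p53 targets, 9 were higher and 3 lower, with a median log2 change of 0.75. CDKN1A, the cell cycle inhibitor p21, was at 86.14, 69.65 and 71.01 TPM in parental cells, 276.19, 282.27 and 305.03 TPM in clone 1 and 332.94, 359.61 and 339.55 TPM in clone 2. TP53INP1 (1.83 to 8.09 and 7.31 TPM), PHLDA3 (14.5 to 35.5 and 38.3 TPM) and GADD45A (5.28 to 10.9 and 10.7 TPM) were higher. TP53I3 (6.41 to 2.05 and 1.13 TPM) and the death receptor gene TNFRSF10A (11.3 to 4.73 and 4.26 TPM) were lower. Among genes of the death machinery, BCL2A1, an antiapoptotic BCL2 relative, was at 1.2, 1.43 and 1.79 TPM in parental cells, 46.5, 35.81 and 39.58 TPM in clone 1 and 40.38, 33.36 and 42.44 TPM in clone 2. BMF, a proapoptotic BH3-only gene, rose as well, from 4.07 TPM to 14.98 and 17.11 TPM.

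Of 10 tested cyclins, cyclin-dependent kinases and their inhibitors, 5 were higher and 5 lower. CDKN2B, the inhibitor p15, rose from 0.657 TPM to 4.64 and 5.46 TPM, and CDKN2A, its neighbour, fell from 79.8 TPM to 33.9 and 36.3 TPM. CDK6, a kinase that drives myeloid proliferation, was at 85.03, 91.32 and 91.47 TPM in parental cells and at 28.32 to 34.14 TPM in the 6 clone libraries. CCND3, a partner of CDK6, rose from 136 TPM to 290 and 286 TPM. PLK1, a mitotic kinase, fell from 79.6 TPM to 37.2 and 52.8 TPM. RICTOR, the scaffold of mTOR complex 2, was at 10.66, 11.73 and 11.92 TPM in parental cells and at 19.34 to 23.2 TPM in the clones.

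High HOX expression is a hallmark of NPM1c+ leukaemia. Of 11 tested HOX genes and HOX cofactors, 8 were lower and 1 higher in both clones, with a median log2 change of -1.15. HOXB9 was at 69.51, 56.58 and 59.73 TPM in parental cells, 17.88, 22.03 and 21.52 TPM in clone 1 and 27.47, 30.7 and 27.34 TPM in clone 2, and it was lower in clone 1 than in clone 2 (adjusted p = 0.0048). HOXB4 fell from 55.1 TPM to 19.5 and 25.4 TPM, HOXB7 from 10.5 TPM to 4.06 and 4.62 TPM, HOXB13 from 6.12 TPM to 0.683 and 0.610 TPM, and the cofactor gene PBX3 from 23.2 TPM to 10.9 and 9.09 TPM. HOXA9, the most abundant member tested, rose from 76.5, 93.86 and 77.06 TPM to between 104.75 and 128.99 TPM. HOXA5 and HOXA7 were already low in parental cells, at 1.82 and 2.82 TPM, and fell further.

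Other genes of stem and progenitor cells had no common direction, with 5 of 13 tested members higher and 5 lower. PROCR, the surface marker EPCR of blood stem cells, was at 108.63, 79.03 and 71.81 TPM in parental cells, 5.75, 7.04 and 6.74 TPM in clone 1 and 8.64, 5.91 and 5.51 TPM in clone 2. SOCS2 (6.83 to 1.36 and 1.35 TPM) and the polycomb gene BMI1 (17.5 to 11.1 and 9.26 TPM) were lower. LMO2, a bridge protein of blood stem cell transcription complexes, rose from 105 TPM to 312 and 254 TPM, and its partner TAL1 from 3.79 TPM to 7.47 and 8.30 TPM. WT1, a gene often high in leukaemia blasts, went from 0, 0.05 and 0.05 TPM to 7.5, 7.14 and 5.52 TPM in clone 1 and 8.43, 7.74 and 8.0 TPM in clone 2. DLX3, a homeobox gene of skin and placenta, rose 16.9-fold and 16.8-fold, from 5.03 TPM to 84.9 and 84.6 TPM. BARX1, also a homeobox gene, fell from 34.5 TPM to 1.27 and 1.22 TPM.

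Adhesion molecules were mostly lower, 10 of 15 tested members with 3 higher and a median log2 change of -1.75. SELPLG, the ligand of P-selectin on leukocytes, was at 48.22, 39.07 and 37.55 TPM in parental cells, 6.3, 6.04 and 5.43 TPM in clone 1 and 7.7, 7.85 and 8.8 TPM in clone 2. ALCAM fell from 29.3 TPM to 3.95 and 3.65 TPM and ICAM2 from 12.1 TPM to 1.62 and 1.48 TPM. Tetraspanins, which organise receptors in the membrane, were among the falls: CD37, CD82 (27.6 to 5.74 and 5.32 TPM), TSPAN32 (44.4 to 6.94 and 7.26 TPM), TSPAN33 (8.71 to 0.580 and 0.753 TPM) and CD9 (2.82 to 0.227 and 0.10 TPM). Another member of that family, CD53, rose from 142 TPM to 180 and 176 TPM. Both chains of the integrin LFA-1 were higher: ITGB2 was at 276.03, 287.49 and 275.14 TPM in parental cells and at 627.58 to 733.68 TPM in the clones, and ITGAL rose from 20.9 TPM to 64.1 and 63.9 TPM. ITGAX, whose product pairs with the same beta chain, fell from 8.97 TPM to 2.65 and 3.08 TPM. The platelet integrin gene ITGA2B fell from 2.82 TPM to 0.437 and 0.320 TPM, whereas GP1BB, which encodes a chain of the platelet receptor for von Willebrand factor, rose from 55.0 TPM to 134 and 142 TPM. Of 5 tested megakaryocyte and platelet genes, 3 were higher and 2 lower.

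Collagen, matrix and protease genes were higher in 13 of 18 tested members and lower in 5, with a median log2 change of 0.93. COL6A1 was at 19.82, 20.61 and 16.86 TPM in parental cells, 91.51, 85.88 and 92.81 TPM in clone 1 and 112.12, 112.46 and 103.75 TPM in clone 2, and COL6A2 rose from 32.1 TPM to 61.9 and 64.0 TPM. MMP2, a gelatinase, rose from 112 TPM to 374 and 425 TPM and TGFBI, a matrix protein of macrophages, from 4.26 TPM to 25.9 and 29.5 TPM. The stromal marker COL1A2 rose at a low level, from 0.06 to 0.25 TPM in parental libraries to 2.85 to 3.91 TPM in clone 1 and 1.83 to 2.17 TPM in clone 2. It was the 1 stromal marker of 5 with a settled symbol, and its part in the other rises was not tested.

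Signalling genes downstream of RAS and ERK were split, 7 of 16 tested members higher and 9 lower. Feedback inhibitors moved both ways. DUSP6, a phosphatase of ERK, was at 4.28, 3.13 and 2.91 TPM in parental cells and at 18.59 to 22.3 TPM in the clones, SPRED3 rose from 1.36 TPM to 8.87 and 11.6 TPM and SPRY2 from 35.0 TPM to 68.3 and 66.3 TPM. DUSP8, another phosphatase of MAP kinases, fell from 12.9 TPM to 1.32 and 1.64 TPM. The AP-1 genes diverged. FOSB fell from 18.8 TPM to 1.52 and 2.58 TPM and JUN from 28.24, 28.54 and 26.5 TPM to between 6.32 and 8.47 TPM, whereas FOS rose from 12.5 TPM to 34.6 and 37.4 TPM. ETV4 (17.2 to 2.52 and 3.48 TPM) and EGR4 (18.3 to 3.53 and 4.24 TPM) fell. TNFAIP3, the NF-kB inhibitor A20, rose from 2.70 TPM to a mean of 16.7 TPM in each clone.

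Developmental pathways gave the following counts. Of 7 tested Wnt genes, 6 were lower, among them the receptor genes FZD1 (8.95 to 2.49 and 2.42 TPM) and FZD3 (3.63 to 0.267 and 0.213 TPM) and the ligand gene WNT7B (3.72 to 0.110 and 0.207 TPM). TCF7L2, a nuclear effector, was the higher member (1.49 to 4.33 and 4.15 TPM). In Notch signalling 4 of 10 tested members were higher and 6 lower. Ligand genes DLL4 (0.31, 0.3 and 0.45 TPM in parental cells, 5.97 to 6.94 TPM in the clones) and DLL1 (5.10 to 16.4 and 17.6 TPM) and the target HES1 (1.92 to 5.38 and 5.26 TPM) were higher. The receptor gene NOTCH3 (2.78 to 0.187 and 0.253 TPM) and the targets NRARP (20.3 to 2.04 and 2.59 TPM) and HES4 (15.4 to 2.00 and 2.94 TPM) were lower, so the named targets did not share a direction.

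**Figure D4:**
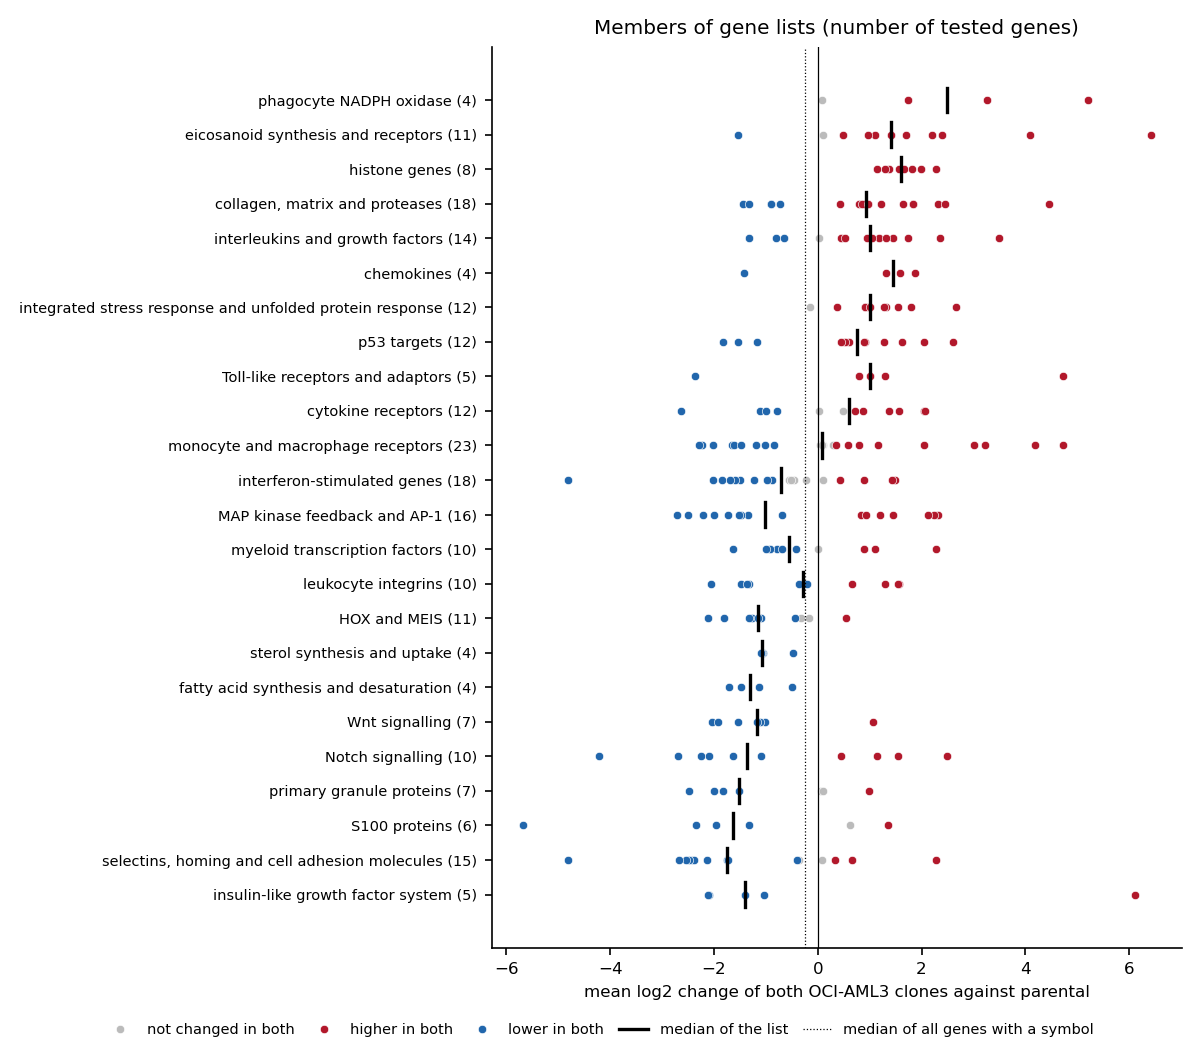
Mean log2 change of both OCI-AML3 clones (horizontal axis) for each tested member of 24 gene lists, with the number of tested members in brackets. Red members were higher and blue ones lower in both clones, grey ones were not changed in both, black bars are list medians and the dotted line is the median of all genes with a symbol (-0.25). Medians run from 2.50 (phagocyte NADPH oxidase) to -1.75 (selectins, homing and adhesion).

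Histone genes are described as well, a list added after their values had been seen. The 8 with a settled symbol were higher in both clones (median log2 change 1.61). HIST1H2BD was at 25.36, 25.3 and 27.35 TPM in parental cells, 118.96, 110.36 and 104.39 TPM in clone 1 and 98.71, 100.39 and 101.62 TPM in clone 2. The linker histone gene HIST1H1C rose from 8.38 TPM to 37.0 and 26.9 TPM and HIST1H2BK from 106 TPM to 301 and 329 TPM. Copies of histone genes are near-identical, so reads may be shared among them. In antigen presentation, the peptide transporter gene TAP1 rose from 39.9 TPM to 106 and 89.9 TPM and the lipid-presenting CD1D from 12.3 TPM to 29.6 and 24.3 TPM. CD74, the invariant chain of class II, fell from 212 TPM to 98.9 and 118 TPM, and the class II list had 1 of 5 tested members higher and 2 lower. The translation factor PABPC1, which binds poly(A) tails, had the second largest gain in TPM, from 2462 TPM to 4994 and 5637 TPM, after CHI3L1, a secreted chitinase-like protein of macrophages (8.29 to 4745 and 5076 TPM; its symbol rests on a single line).

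Within OCI-AML3, some genes were listed at 0 in the parental libraries but not in the clones. Listed at 0 in the 3 parental libraries and at 5 TPM or more in each of the 6 clone libraries were 7 sets, 6 of them with a symbol: MAGED1, GSPT2, RTL8B, SPIN3, TCEAL9 and ZNF302. The reverse, 0 in the 6 clone libraries and 5 TPM or more in the parental ones, was found in 0 sets. GSPT2, a translation termination factor, was at 11.88, 10.95 and 11.23 TPM in clone 1 and 10.23, 10.83 and 12.55 TPM in clone 2. RTL8B, derived from a retrotransposon gag gene, was at 14.67, 16.07 and 15.85 TPM and 17.09, 21.42 and 19.09 TPM, SPIN3, a histone reader, at 5.04 to 6.85 TPM, and TCEAL9 at 6.22 to 8.7 TPM. Except for ZNF302, the named ones are X-linked genes. MAGED1, GSPT2, SPIN3 and TCEAL9 rest on a single line for their symbol and were also listed at 0 as means of OCI-AML2 parental cells and of both OCI-AML2 clones, whereas RTL8B was at 25.3 TPM there in parental cells and 14.1 and 15.2 TPM in the clones. The class was picked by its values, so its size is a description.

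Among the listed genes, which were picked for a change, the clones resembled each other more than either resembled the parental cells. Picking that includes changes shared by both clones favours this outcome, and how far it does so was not tested. Between clone 2 and clone 1, 301 of 4413 sets differed (6.82%), 174 higher (3.94%) and 127 lower (2.88%) in clone 2. The median absolute log2 difference between the clones was 0.11 over all tested sets, and 0.12 over the sets changed in both clones. The median absolute change of the latter against parental cells was 0.94, a value raised by choosing sets called for that change. Of the 2959 sets changed in both, 208 (7.03%) also differed between the clones, 107 of them farther from parental cells in clone 1 and 101 in clone 2. The count of 301 depends on single libraries: it was 102 without clone 2 replicate 2, 134 without clone 1 replicate 1, 159 without clone 1 replicate 2 and 171 without clone 2 replicate 1. Beside the interferon list, NPY, neuropeptide Y, was at 0 in parental cells, 1.85 to 2.42 TPM in clone 1 and 3.55 to 6.96 TPM in clone 2, and IGFBP3 was lower in clone 2 than in clone 1 (314 against 225 TPM, adjusted p = 0.00052).

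In OCI-AML2, 38.4% of sets changed in both clones in the same direction. The listed genes were picked for a change, and the picking need not have weighed the lines alike. How far it shaped the shares in this paragraph was not tested, so these shares do not show which line responded more. A set was counted as changed differently only if all 4 pairwise differences between the clone changes of the lines passed in the same direction, which held in 2707 of 4413 sets (61.3%); the OCI-AML3 change was the more positive one in 24.2% and the more negative one in 37.1%. Among genes with a symbol the shares were 80.8%, 32.4% and 48.4%. Of 11 tested eicosanoid genes, 10 changed more positively in OCI-AML3: PTGER3 had a mean log2 change of 1.70 there and 0.00 in OCI-AML2, ALOX5 2.21 and 0.01. Of 12 stress response genes 11 had the more positive change, with NUPR1 at 2.67 against -1.06 and STC2 at 1.01 against -2.21. All 11 tested HOX genes and cofactors had the more negative change, HOXB9 with -1.32 against 0.01 and HOXA7 with -1.81 against 2.14. Of 18 interferon genes 11 had the more negative and 2 the more positive change, IFI44 with -1.50 against 1.54 and IFIT1 with 1.49 against 0.35.

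Further lists differed between the lines as follows. Of 8 histone genes, a list added after its values had been seen, 6 changed more positively in OCI-AML3, so this count is a description. Except for HIST1H2AD, the log2 changes of the OCI-AML2 clones had opposite signs, such as 0.92 and -1.66 for HIST1H2BD. Of 12 p53 targets 4 had the more positive and 7 the more negative change, PHLDA3 with 1.28 against 2.71. Of 6 S100 genes 6 had the more negative change, S100A9 with 1.35 against 4.63. For the alpha and beta chains of the GM-CSF receptor, the log2 change of CSF2RB was -2.62 in OCI-AML3 against -0.36 in OCI-AML2, that of CSF2RA 0.72 against -0.46, and both differed between the lines.

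**Figure D5:**
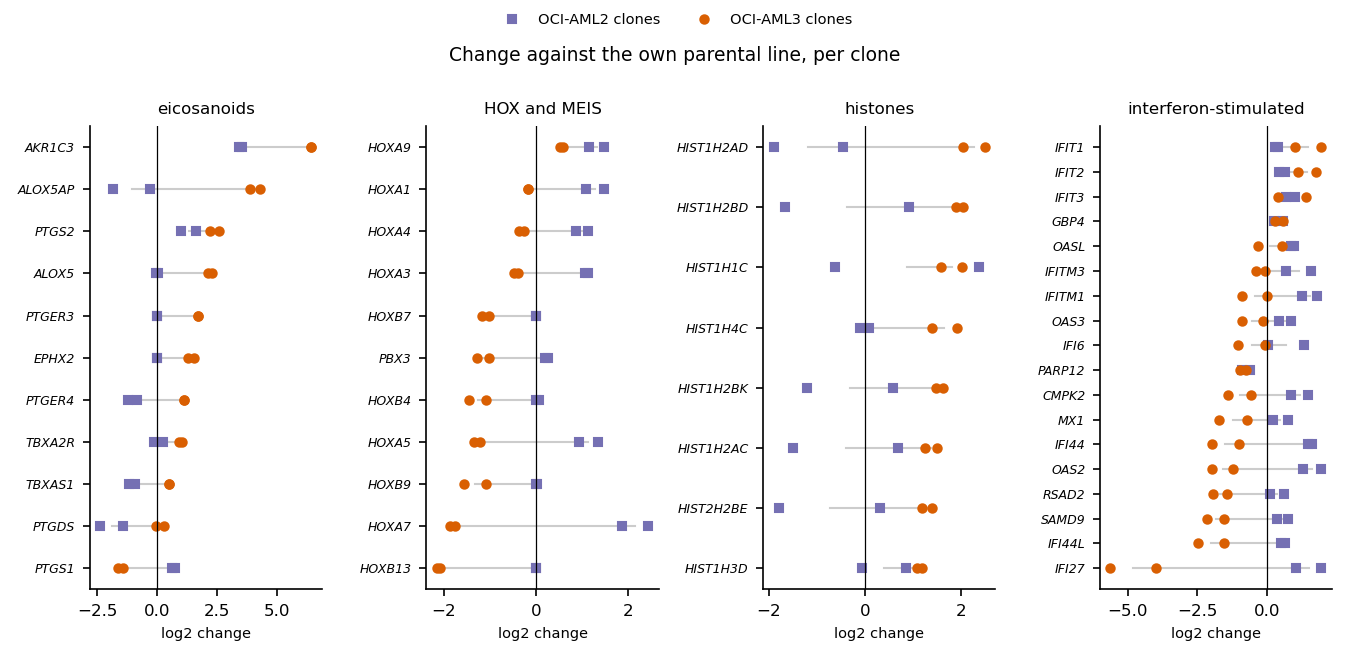
Log2 change of each clone against its own parental line for 4 gene lists, with OCI-AML3 clones as orange circles and OCI-AML2 clones as purple squares; grey lines join the line means. HOX genes lie farther left in OCI-AML3 for each member shown, eicosanoid genes other than PTGS1 lie farther right. The histone list was added after its values had been seen.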

How the data were processed

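RNA sequencing values of 18 libraries were analysed, 9 of them from OCI-AML3. The values are TPM, deposited by the authors in 1 table, per the file headers; the aligner, the genome build and the gene models behind them are not named in any label or header. All 18 value columns matched a sample and 0 did not. The table has 6999 lines but 5069 distinct sets of 18 values, 1319 of them under 2 different symbols. Each set was counted once. Symbols were settled for 575 sets that recur under 1 name, 1076 by the replicate order of clone 1 (the right symbol stands in the line reading a, b, c whose twin reads b, c, a), 673 in a single line with a log2 ratio under 0.6 between the parental lines, and 31 by the order of the stacked lists, 2355 sets in all (46.5%). Unnamed sets entered fits and counts.

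Sets with 1 TPM in 3 libraries were tested as log2(TPM + 1) with limma 3.58.1 (R 4.3.3), 1 mean per group over 18 libraries, intensity trend, Benjamini-Hochberg adjustment within each comparison, threshold 0.05. Log2 changes are on this scale, which understates changes of low genes; folds are ratios of mean TPM. On simulated data 98.5% of 200 sets with a log2 change of 1 were recovered, with 1 false call. These sets were not low in parental cells, the noise was normal and all other sets were unchanged. The real data, where most sets were called, are unlike this.

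Named genes are the 30 largest rises and falls, the 15 largest gains and losses in TPM, and up to 4 called and 2 uncalled members per list. Added to them were the 10 largest differences between clones and, each way, between lines. The rankings of rises, falls, gains, losses and differences cover only genes called in both OCI-AML3 clones in the same direction. Those between lines also had to pass all 4 pairwise differences. Further list members were named after their values were seen. The members and the gene lists were chosen with earlier results of these data known. Lists were counted, not tested. Promoter sequences are RefSeq's, matched by symbol (1492 of 2112 genes).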

Additional observations from a re-analysis of the deposited data

Results flagged for a closer look

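The following 20 genes are the 10 largest differences each way between the clone changes of OCI-AML3 and OCI-AML2, among genes chosen by 2 conditions. They had to be called in both OCI-AML3 clones. All 4 pairwise differences of clones also had to pass limma's test at an adjusted p under 0.05, so passing is part of the choice. Larger differences of genes not called in OCI-AML3 were left out, such as CEACAM6 (-5.97), S100A8 (-4.87) and BPI (-4.63). The values are the mean log2 change in OCI-AML3 minus that in OCI-AML2. More positive in OCI-AML3 were CHI3L1 (9.61), PYGM (6.93), IGFBP3 (6.11), COL8A2 (5.83), CD14 (5.49), NTSR1 (5.35), ALOX5AP (5.15), RTL8B (4.95), PRAM1 (4.87), an adaptor of neutrophils, and MAGED1 (4.76). More negative in OCI-AML3 were IFI27 (-6.30), MT1A (-5.94), S100A16 (-5.50), CRIP1 (-4.86), RASL11A (-4.80), the autophagy gene MAP1LC3A (-4.74), GOT1 (-4.68), CD37 (-4.49), the glutathione transferase gene GSTT1 (-4.46) and the methionine sulfoxide reductase gene MSRB3 (-4.38).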

How the results depend on the processing

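A limit of at least 1 on the log2 change left 1240 sets changed in both clones (530 higher, 710 lower), 1398 in clone 1, 1374 in clone 2, 7 between the clones and 1297 between the lines. The difference between the clones was the count that moved most: 166 sets with a pseudocount of 0.1 TPM, and 102 to 343 with 1 OCI-AML3 library left out. With 1 library left out, both clones changed in 2711 to 2924 sets (1209 to 1250 higher, 1484 to 1678 lower), clone 1 in 2957 to 3189, clone 2 in 2985 to 3211, and the lines differed in 2521 to 2704. Rescaling by medians of ratios moved the higher share of calls from 42.8% to 50.1%. Of 276 named genes, 15 crossed the threshold in some setting and 0 reversed; the cause was not tested. Counting depth is unknown, so changes of genes under 1 TPM are the least certain.

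Deviations of same-numbered OCI-AML3 libraries correlated at r = -0.18 (parental and clone 1, replicate 1) to 0.177 (parental and clone 2, replicate 3), so the numbers are not taken as pairs. With a replicate block 2933 sets changed in both clones (1257 higher, 1676 lower) and 233 differed between the clones, and CASP2 had a mean log2 change of 0.03. Among the named genes the block changed the call of S100A8 alone, which then passed (0.63).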
